A study of Mus musculus with 25 samples.

Results

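The EGF receptor family is described here through 9 genes across 8 compartments of the developing mouse palate. They are the receptor genes Egfr, Erbb2 and Erbb4 and the ligand genes Tgfa, Hbegf, Areg, Ereg, Btc and Nrg1, taken from the 37406 genes of the table by their symbols. There were 3 receptors and 6 ligands, and all 9 were found. Palatal shelves were taken at embryonic day E14.5 from wild type CD1 embryos, and compartments were cut out by laser capture microdissection, in which a laser lifts chosen tissue from a section. There were 25 RNA-Seq libraries, 3 of each compartment and 4 of the anterior nasal one, so that 13 were anterior and 12 posterior. All groups share strain, stage and genotype, and the number of embryos behind a library is not given in the sources used here. Medial and lateral, and oral and nasal, are different ways of dividing the same shelf, so a lateral library and an oral library can hold the same cells.

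Receptors of this family sit in the cell membrane and carry a tyrosine kinase inside the cell. A bound ligand brings receptors together in pairs, and the paired kinases signal through the RAS, ERK and PI3K cascades to growth, survival and movement. Tgfa, Areg, Hbegf, Btc and Ereg encode ligands of EGFR, Btc, Hbegf, Ereg and Nrg1 encode ligands of ERBB4, and ERBB2 has no known ligand of its own and serves as a partner of the others. In the palate, EGFR signaling is known for its place in growth and fusion of the shelves.

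Of the 2 members high enough to test, Egfr differed more among compartments. Its mean level, in RPKM, reads scaled to the length of the transcript and to the mapped reads of the library,, was lowest in both medial compartments and highest in the posterior lateral and posterior oral ones, with the highest mean 9.76 times the lowest. The highest mean of Erbb2 was 1.72 times its lowest. The other 7 members stayed below 5 RPKM in all 25 libraries, with 2.56 RPKM as their highest value and 46 of their 175 values at 0.

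The stretches of DNA just before the start sites of Egfr, Erbb2 and Areg are shown because these genes span the range of the family. They are a receptor that varied by place, a receptor whose compartment means differed less and a ligand that was hardly read. Each stretch is the 250 bases upstream of the RefSeq start, build GRCm38.p6, plus strand, 5′ to 3′. Capitals mark 3 motifs searched on both strands, the TATA box TATAAA, the GC box GGGCGG and the cyclic AMP response element TGACGTCA.
Egfr, chr11:16751953-16752202: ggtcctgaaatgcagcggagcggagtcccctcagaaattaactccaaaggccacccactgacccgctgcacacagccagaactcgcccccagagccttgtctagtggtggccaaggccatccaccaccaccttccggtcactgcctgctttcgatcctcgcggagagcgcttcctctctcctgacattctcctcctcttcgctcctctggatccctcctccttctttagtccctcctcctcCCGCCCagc
Erbb2, chr11:98412234-98412483: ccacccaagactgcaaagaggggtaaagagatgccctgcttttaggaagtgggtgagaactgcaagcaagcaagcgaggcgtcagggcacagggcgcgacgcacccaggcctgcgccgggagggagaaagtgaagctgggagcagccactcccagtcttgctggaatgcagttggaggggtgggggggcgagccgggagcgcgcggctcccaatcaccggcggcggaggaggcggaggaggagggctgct
Areg, chr5:91139349-91139598: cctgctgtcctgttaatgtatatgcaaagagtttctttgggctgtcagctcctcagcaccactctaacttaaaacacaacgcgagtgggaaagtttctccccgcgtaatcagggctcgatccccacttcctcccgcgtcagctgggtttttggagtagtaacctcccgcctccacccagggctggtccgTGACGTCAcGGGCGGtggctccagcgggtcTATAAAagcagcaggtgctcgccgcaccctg
The Egfr stretch held 1 GC box and no TATA box, and that of Erbb2 held none of the 3 motifs. The Areg stretch held 1 match to each, with the TATA box starting 31 bases before the start site. Among 32851 promoters of this length, 12.4% held a TATA box, 32.7% a GC box and 1.55% a cyclic AMP response element, on either strand. A match is a run of letters and was not tested as a site. RefSeq promoter entries were used for 6 of the 9 members.

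The depth behind these values was low. RPKM steps of genes read in 2 to 20 libraries implied 1.64 to 6.56 M reads per library after the authors' filters, with a median of 3.27 M. This total is an estimate, at which 324 of 1588 such genes with 1 annotated transcript moved in steps of 1 base and 150 in steps of 1 whole read. The total is below the average number of reads that the study's methods give without saying at which step it was counted. A pair of libraries were the least like their replicates. Posterior medial 2 had a mean Pearson r of 0.652 with its replicates, over the logged values of genes at 5 RPKM or more in at least 3 libraries, and 12935 genes above 0. Anterior oral 1, the library of lowest depth, had a mean r of 0.703. This was little below the 0.725 of posterior medial 1, so no clear gap set the pair off. Across all libraries this mean r reached 0.926, with a median of 0.861. Markers for the check of the labels were chosen with earlier results of these data known. They summed to between 157 and 256 RPKM for the anterior list in anterior libraries and between 2.00 and 63.8 RPKM in posterior ones, with no overlap.

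Egfr, which encodes the receptor of EGF and TGF-alpha, is listed as gene 13649 and in the file's mm9 coordinates lies at chr11:16652206-16813910. In anterior medial libraries 1 to 3 it stood at 2.32, 2.21 and 2.83 RPKM. In anterior lateral libraries it stood at 10.5, 8.53 and 7.14 RPKM. Every anterior lateral library was above every anterior medial one. In posterior medial libraries it was 4.57, 4.25 and 2.41 RPKM, and in posterior lateral libraries 23.0, 27.0 and 21.8 RPKM. The posterior groups did not overlap either, and posterior medial 2 lay within the range of its group for this gene.

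Egfr values of the oral and the nasal side lay closer to each other. Anterior oral libraries held 18.1, 14.1 and 13.5 RPKM and the 4 anterior nasal libraries 7.72, 7.37, 6.54 and 11.6 RPKM. Posterior oral libraries held 27.7, 23.6 and 18.5 RPKM and posterior nasal ones 16.3, 13.7 and 13.9 RPKM. In both regions all oral libraries were above all nasal ones.

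Ordered by mean, Egfr fell from 23.9 ± 2.69 RPKM (SD, n = 3) in posterior lateral and 23.3 ± 4.61 in posterior oral, through 15.2 ± 2.51 in anterior oral and 14.6 ± 1.47 in posterior nasal, to 8.72 ± 1.68 in anterior lateral and 8.30 ± 2.23 (n = 4) in anterior nasal. The posterior medial mean of 3.74 ± 1.17 and the anterior medial mean of 2.45 ± 0.331 RPKM closed the order. Neighbours in this order overlapped within each of these pairs, posterior lateral with posterior oral, anterior oral with posterior nasal, anterior lateral with anterior nasal, and posterior medial with anterior medial. Between one such pair and the next no library overlapped. The order was made from these same values, and the first of these gaps was narrow, 18.5 RPKM in posterior oral 3 against 18.1 RPKM in anterior oral 1.

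**Figure D1:**
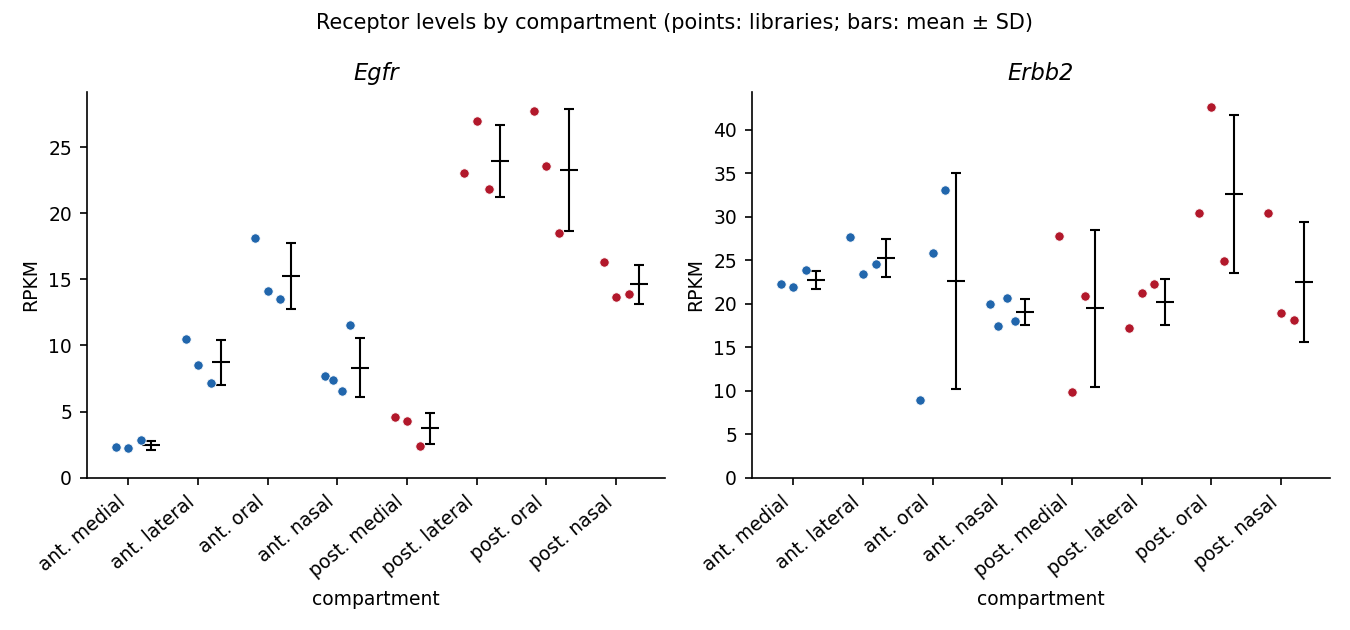
Egfr (left) and Erbb2 (right) levels in RPKM on linear axes from 0, by compartment, with a point for each library (blue anterior, red posterior) and the mean ± SD beside them. Egfr is lowest in both medial compartments, at 2.45 and 3.74 RPKM, and highest in posterior lateral and oral, at 23.9 and 23.3 RPKM, while the Erbb2 ranges overlap between every pair of neighbours in its order of means.

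The first comparison asked which members differ between the lateral and the medial side of the anterior shelf. Egfr was higher on the lateral side by 1.78 on the log2 scale (SE 0.17), and this passed the test (limma on log2(RPKM + 0.1), adjusted p = 0.00344). Erbb2 differed by 0.15 (95% interval -0.12 to 0.42, adjusted p = 0.628). Of the 9 members, 2 reached the minimum for a test, 5 RPKM in 3 of the compared libraries, and 1 of them was called, which means an adjusted p under 0.05. Calls were made for 2.51% of the genes tested. Egfr reached the minimum only through the lateral libraries, where it was high, and without a minimum level it was still called (limma, adjusted p = 0.0327). On leaving out any 1 of the 3 lateral libraries Egfr missed that minimum and was not tested, since only 2 libraries above 5 RPKM were then left. Its difference was 1.45, with adjusted p = 1.00, when the sequencing run was a term of a fit over all 25 libraries. All anterior medial libraries came from 1 run and no anterior lateral library came from that run, so run and compartment cannot be told apart within this pair.

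In the posterior shelf the difference of Egfr was larger, 2.69 on the log2 scale (SE 0.33, 95% interval 1.88 to 3.50), a fold of 6.46. It did not pass the adjusted threshold (limma, adjusted p = 0.450), where 0% of 10324 genes did and 159 genes had an unadjusted p under 0.05. It met an unadjusted p under 0.05 with a change over 2-fold, as 1.12% of the genes tested did, and no other member did. These are thresholds of the study, whose methods name no adjustment. Egfr entered this test through the lateral libraries only, since all medial ones were below 5 RPKM, and without a minimum level the adjusted p was 0.511 by limma. When 1 fit over all 25 libraries estimated the spread, Egfr was among 25 genes called here (limma, adjusted p = 9e-06), and with the run as a further term of that fit it was not called (2.82, limma, adjusted p = 0.272). Here too no run held both compartments, so they cannot be told apart. The lateral-minus-medial difference of Egfr was larger in the posterior than in the anterior shelf by 0.91 (95% interval 0.09 to 1.73), which did not pass the adjusted threshold (limma, adjusted p = 0.964). That test of the difference called neither of the 2 members tested and 0.00902% of genes.

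For oral against nasal, Egfr differed by 0.89 (SE 0.27) in the anterior shelf and by 0.65 (SE 0.23) in the posterior one. Neither passed the adjusted threshold (limma, adjusted p = 0.974 and 0.388). In the anterior shelf 0% of genes were called by limma, with 318 at an unadjusted p under 0.05, and in the posterior shelf 1.25% were called, against 0 of the 2 members tested in each. The oral-minus-nasal difference itself differed between regions by -0.24 for Egfr (95% interval -0.98 to 0.51), and this test called 0.035% of genes and neither member.

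Along the anterior-posterior axis Egfr was higher in the posterior palate in the lateral, oral and nasal compartments. In the lateral compartment the difference was 1.46 (SE 0.18), which passed the test (limma, adjusted p = 0.0177), and every posterior lateral library exceeded every anterior lateral one. This was 1 of 2 members tested, beside 1.39% of genes called. The call was lost with the run as a term (1.75, limma, adjusted p = 0.144) and without anterior lateral 2 or 3 or posterior lateral 2 or 3, where the adjusted p reached 0.130. In the oral compartment the difference of 0.60 (SE 0.29) did not pass (limma, adjusted p = 0.858), with 0.179% of genes called. In the nasal compartment a difference of 0.84 (SE 0.23) did not pass either (limma, adjusted p = 0.110), with 2.21% of genes called. It passed without anterior nasal 4, the highest of its group for Egfr (1.01, limma, adjusted p = 0.0354). The median of all genes tested was itself shifted by 0.12 in both the oral and the nasal comparison, and centring each library on its median turned the direction of Egfr in neither.

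In the medial compartments Egfr was below the minimum for a test, with posterior values of 2.41 to 4.57 RPKM overlapping anterior ones of 2.21 to 2.83 RPKM. Erbb2 was the only member tested there and was not called, beside 0.106% of genes. With all compartments pooled, Egfr ranged from 2.21 to 18.1 RPKM over 13 anterior libraries (median 7.72) and from 2.41 to 27.7 RPKM over 12 posterior ones (median 17.4). The pooled difference of 0.85 (SE 0.41) did not pass the test (limma, adjusted p = 0.316), with 3.32% of genes called and 0 of 2 members. Where the fit held the compartment of each library, the difference averaged over compartments was 0.86 (SE 0.12) and passed (limma, adjusted p = 9.2e-05), and with the run as a further term it was 0.91 (SE 0.19, adjusted p = 0.029).

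**Figure D2:**
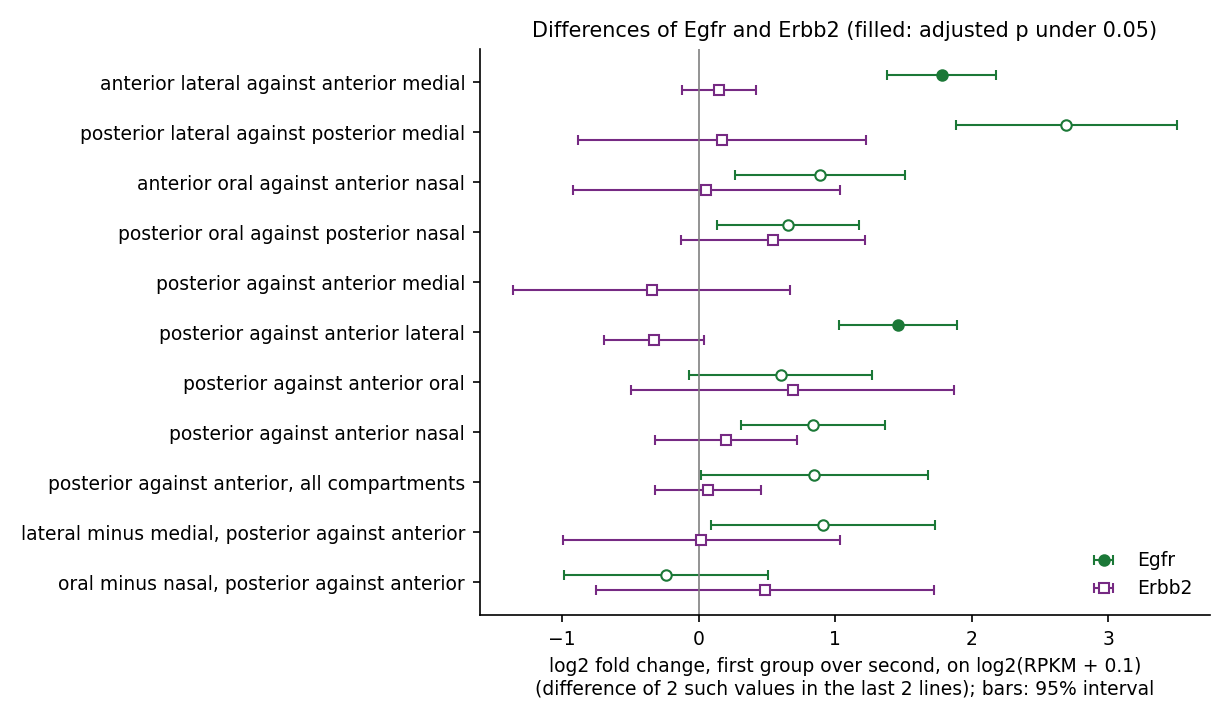
Log2 fold changes of Egfr (circles) and Erbb2 (squares) with 95% intervals for the 11 comparisons, on log2(RPKM + 0.1), where filled symbols passed an adjusted p of 0.05. Egfr is filled for anterior lateral against medial (1.78) and for posterior against anterior lateral (1.46), no Erbb2 symbol is filled, and Egfr has no symbol for the medial compartments, where it was not tested.

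Sequencing runs could be held constant for some of these differences. Within the 3 runs that held both anterior oral and anterior nasal libraries, Egfr was 18.1 against 7.37 and 7.72 RPKM, 14.1 against 6.54 RPKM and 13.5 against 11.6 RPKM. Oral was above nasal in all 3 runs. Within the 2 runs that held both posterior compartments it was 27.7 against 16.3 RPKM, and 18.5 and 23.6 against 13.7 RPKM. With the run as a block in each pair alone, the oral-nasal difference was 0.90 in the anterior and 0.67 in the posterior shelf. The only run that held both lateral groups gave 7.14 RPKM for anterior lateral and 21.8 and 27.0 RPKM for posterior lateral. These 3 libraries repeated the direction of the lateral groups as a whole.

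**Figure D3:**
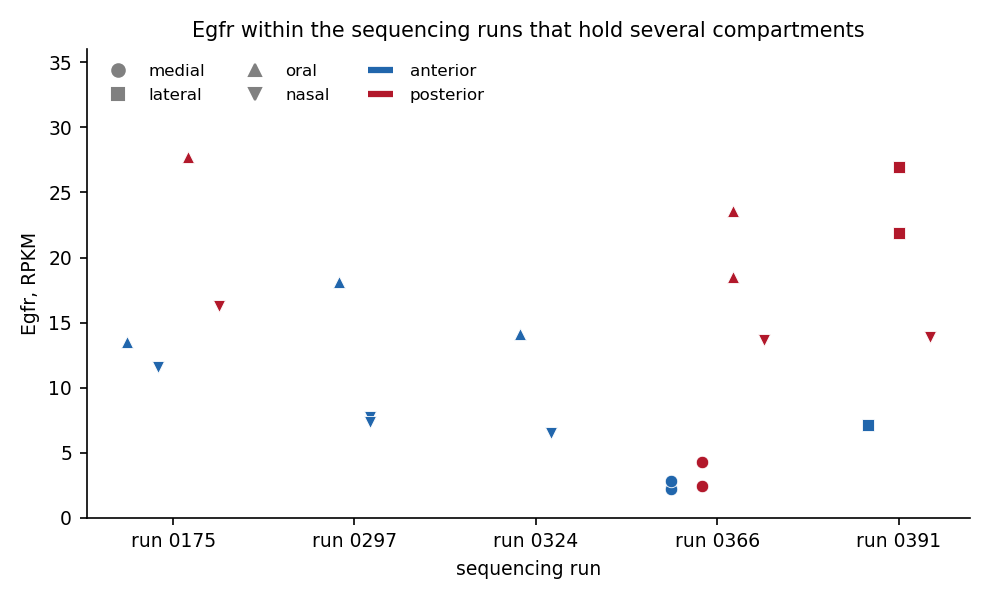
Egfr in RPKM (linear axis from 0) within each of the 5 sequencing runs that held several compartments, a symbol for each library, shaped by compartment and coloured by region. Oral symbols lie above nasal ones of the same region within every run that holds both, and posterior lateral lies above anterior lateral in run 0391, at 21.8 and 27.0 against 7.14 RPKM.

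Other cell types also varied between the compartments. The summed level of 14 epithelial markers ran from 95.8 to 168 RPKM in anterior medial and from 57.1 to 115 RPKM in anterior lateral libraries, and from 77.8 to 201 RPKM in posterior medial and from 36.7 to 56.9 RPKM in posterior lateral ones. The epithelial sums overlapped between the anterior groups, while in the posterior shelf all lateral ones were below all medial ones. None of the 14 markers was at 0 throughout a compartment. Oral and nasal epithelial sums overlapped in both regions. The sum of 8 endothelial markers was 123 to 151 RPKM in anterior medial against 177 to 204 RPKM in anterior lateral, and 65.6 to 102 RPKM in posterior nasal against 154 to 212 RPKM in posterior oral. It overlapped between posterior medial and lateral, at 71.3 to 180 and 143 to 175 RPKM. Between anterior oral and nasal it overlapped too, at 139 to 228 and 83.4 to 153 RPKM. Between the lateral compartments both the epithelial and the endothelial sum were lower in the posterior one, where Egfr was higher, while the sum of 5 cartilage markers was higher there, at 46.6 to 77.2 against 20.7 to 21.6 RPKM. Sums of 8 nerve and Schwann markers were 39.2 to 62.2 RPKM in anterior medial and 20.7 to 24.2 RPKM in anterior lateral libraries, and the cartilage sum was 67.6 to 109 RPKM in anterior medial ones. In the posterior shelf the nerve and Schwann sums were 17.7 to 50.4 RPKM in medial and 13.4 to 16.5 RPKM in lateral libraries. The medial and lateral cartilage sums overlapped there. The sum of 7 osteoblast markers was 44.8 to 79.1 RPKM in anterior oral against 98.2 to 147 RPKM in anterior nasal. In posterior oral it was 96.4 to 122 RPKM, against 472 to 679 RPKM in posterior nasal. The cartilage sum was 19.7 to 48.8 RPKM in anterior oral against 57.4 to 101 RPKM in anterior nasal, and the posterior oral and nasal ones overlapped. The part of cell makeup in the Egfr differences was not tested, and in such samples fewer cells of a type and less RNA per cell cannot be told apart.

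Erbb2, the receptor without a known ligand, is listed as gene 13866 at chr11:98273798-98299030 (mm9). It was the most abundant member in 22 of the 25 libraries, with a range of 8.97 to 42.7 RPKM. Its highest value in a library was in posterior oral, where the libraries stood at 30.4, 42.7 and 24.96 RPKM. Its 2 lowest were in the libraries least like their replicates, with 8.97 RPKM in anterior oral 1, against 25.8 and 33.1 RPKM in its replicates, and 9.80 RPKM in posterior medial 2, against 27.8 and 20.9 RPKM. All neighbouring compartments overlapped in the order of means, which ran from 32.7 ± 9.08 RPKM in posterior oral to 19.0 ± 1.51 RPKM in anterior nasal. Erbb2 was tested in all 11 comparisons and called in 0 of them by limma, with 0 at an unadjusted p under 0.05. Among the 9 comparisons of groups, only that of the lateral compartments showed no overlap, at 17.2 to 22.2 RPKM posterior and 23.4 to 27.7 RPKM anterior. This was a difference of -0.32 (95% interval -0.69 to 0.04, limma, adjusted p = 0.496). Some pairs outside these comparisons did not overlap either, such as posterior oral, from 24.96 RPKM, and anterior nasal, up to 20.6 RPKM. The end of Erbb2 overlaps the neighbouring gene 1810046J19Rik, whose median level was 23.5 RPKM, by a few bases, and strand was not used as far as the sources used here state.

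Egfr exceeded Erbb2 in 3 libraries. The ratio of Egfr to Erbb2 within a library was 0.101 to 0.119 in anterior medial and 0.290 to 0.378 in anterior lateral. It was 0.116 to 0.434 in posterior medial and 0.983 to 1.34 in posterior lateral. The lateral ratios were above the medial ones in both regions, with no overlap. Oral and nasal ratios overlapped in both regions, at 0.407 to 2.02 and 0.317 to 0.642 in the anterior shelf. In the posterior shelf they were 0.553 to 0.912 and 0.536 to 0.766. The highest ratio, 2.02, was that of anterior oral 1, where Erbb2 was low, and the other anterior oral libraries lay at 0.407 and 0.545.

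Erbb4, the receptor of neuregulins among others, was near the limit of reading. It was at 0 in 5 libraries and reached 1.78 RPKM in anterior nasal 1, on about 423 reads over all libraries. In anterior medial it stood at 0, 0.0142 and 0 RPKM, and in posterior oral at 0.188, 1.29 and 0.461 RPKM. The 3 anterior medial libraries were below all posterior oral ones. These are the compartments of lowest and highest mean, a pair picked after the values were seen and not tested. A value of 0 for Erbb4 allows up to 0.0380 RPKM at the highest depth and 0.152 RPKM at the lowest, taking 3 reads as the limit, for counting error only.

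Among the ligands, Nrg1 (neuregulin 1, a ligand of ERBB3 and ERBB4) and Hbegf (heparin-binding EGF-like growth factor) were the only ones above 0 in all libraries. Nrg1 lay between 0.417 and 2.56 RPKM with a median of 0.981, on about 519 reads in all. Its mean was highest in anterior nasal, where the libraries stood at 1.64, 2.56, 1.36 and 1.16 RPKM. The 3 posterior nasal libraries stood below these at 0.980, 1.01 and 0.827 RPKM. Some libraries of other compartments lay within the anterior nasal range, such as anterior medial 1 at 1.56 RPKM and posterior oral 1 at 1.54 RPKM. The nasal groups did not overlap for Nrg1, which was too low for the main test. Without a minimum level its log2 difference was -0.72 and did not pass (limma, unadjusted p = 0.053, adjusted p = 0.416). Hbegf lay between 0.103 and 2.28 RPKM with a median of 1.07, its lowest value in anterior oral 1 beside 2.23 and 1.87 RPKM in the replicates of that library. That lowest value stood for less than 1 read by the approximate depth (0.489).

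Tgfa (transforming growth factor alpha) and Btc (betacellulin) were lower. Tgfa was at 0 in 2 libraries and reached 2.15 RPKM in posterior nasal 1, where the other replicates held 0.429 and 0.593 RPKM. Btc was at 0 in 4 libraries and reached 1.16 RPKM in posterior oral 3, with 0.229 and 0.417 RPKM in its replicates. Each of these top values was more than 2 times that of either replicate. About 266 reads stood behind all Tgfa values and 119 behind those of Btc. The libraries of run 0175 held Tgfa at 2.15 RPKM in posterior nasal 1, 1.11 in posterior oral 1, 1.04 in anterior oral 3 and 0.997 in anterior nasal 4. All but the last were the highest of their compartment, and anterior nasal 1, of another run, held 1.39 RPKM. The part of the run in the Tgfa values was not tested.

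Areg (amphiregulin) and Ereg (epiregulin), which lie close to each other and to Btc on chromosome 5, were at 0 in most libraries. Areg was above 0 in 7 libraries and Ereg in 8, on about 8.65 and 20.8 reads in all. Areg was read in all 3 posterior lateral libraries, at 0.141, 0.350 and 0.358 RPKM, and in none of the 3 anterior lateral and 3 posterior medial ones. These values stand for about 3.04 reads in all, and the value of 3 reads at median depth is 0.755 RPKM, so no difference was detectable at this depth. The highest Areg value, 0.772 RPKM, was in anterior medial 3, beside 2 replicates at 0. Ereg was highest in anterior nasal 4, at 0.537 RPKM, with the other anterior nasal libraries at 0. Ereg overlaps the gene Gm19610 by a short stretch, which reached 1.27 RPKM.

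The 6 ligands summed to between 1.88 and 5.91 RPKM in a library, with a median of 3.19. Their summed level was 2.86 to 3.46 RPKM in anterior medial and 1.88 to 4.33 RPKM in anterior lateral, the compartments between which Egfr was called. In posterior medial and posterior lateral it was 2.12 to 3.15 and 2.88 to 3.06 RPKM. In both regions the lateral and medial sums overlapped. In fits without a minimum level, none of 76 tests of these 7 low members reached an adjusted p under 0.05 by limma, and 3 had an unadjusted p under 0.05. These 3 were of Areg and shared the posterior lateral libraries, which held about 3.04 Areg reads in all. The share of all genes at that unadjusted level in these fits was not counted, so no result about Areg is drawn from them.

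**Figure D4:**
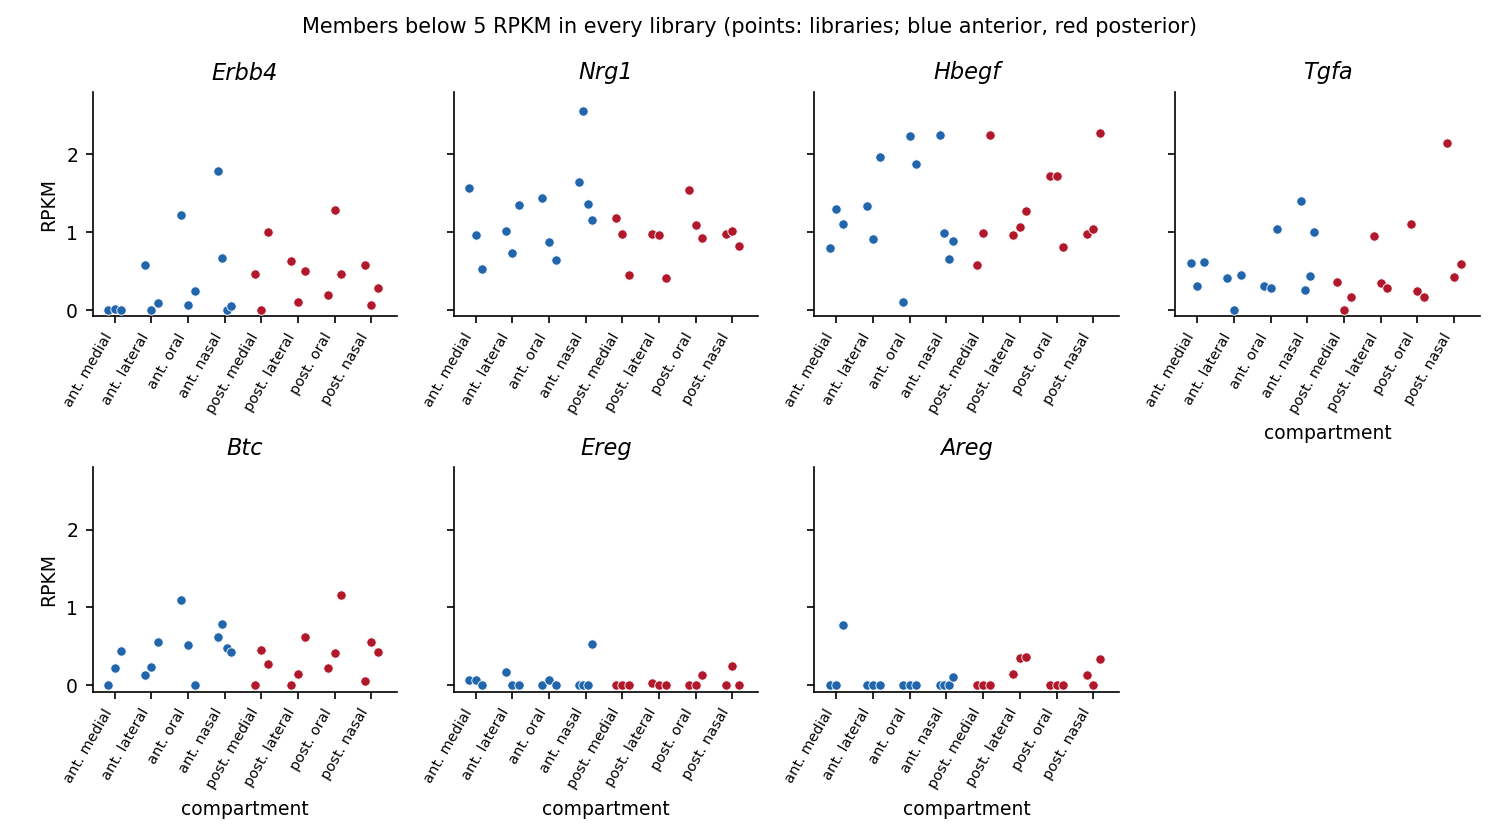
Levels of Erbb4 and the 6 ligands in RPKM on one linear axis, by compartment, with a point for each library (blue anterior, red posterior). All points lie at or below 2.56 RPKM, Nrg1 and Hbegf are above 0 in all 25 libraries, and Areg and Ereg are at 0 in 18 and 17 of them.

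The rest of the pathway was followed through 60 listed genes, the other receptors and ligands, the proteases that release ligands, the adaptors, the RAS, ERK and PI3K cascades and response genes, of which 59 were found. Between 40 and 46 of them were tested in each comparison. For anterior lateral against medial 0 of 46 were called by limma, beside 2.51% of all genes. For posterior lateral against medial and anterior oral against nasal 0 were called too, where limma called 0% of all genes. The list's median difference for anterior lateral against medial was 0.09, beside -0.03 for all genes tested, and for posterior lateral against medial it was -0.02 beside 0.05. The only listed gene called for posterior oral against nasal was Dusp6, which encodes an ERK phosphatase, at 18.8 ± 6.59 against 6.19 ± 1.08 RPKM (n = 3 each, log2 difference 1.55, limma, adjusted p = 0.0468). This was 1 of 44 listed genes tested, beside 1.25% of all genes. That call was lost on leaving out any 1 of the 6 libraries, where the limma adjusted p lay between 0.0743 and 0.261. The 7 osteoblast markers summed to 96.4 to 122 RPKM in posterior oral and to 472 to 679 RPKM in posterior nasal, and their part in the Dusp6 difference was not tested.

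Between posterior and anterior nasal libraries 2 of 46 listed genes were called, both higher in the posterior, beside 2.21% of all genes. Ccnd1, which encodes cyclin D1, stood at 56.5 ± 9.54 against 20.1 ± 3.73 RPKM (1.49, limma, adjusted p = 0.0116). Myc, which encodes a transcription factor of cell growth, stood at 80.5 ± 8.40 against 38.5 ± 6.69 RPKM (1.07, limma, adjusted p = 0.0328). Leaving out 1 library ended the Ccnd1 call for 2 of 7 libraries, posterior nasal 1 and 3, and the Myc call for 6 of 7, and with the run as a term neither was called (limma, adjusted p = 0.861 and 0.808). The osteoblast sum was 98.2 to 147 RPKM in anterior nasal, below that of posterior nasal, and its part in these differences was not tested.

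With all compartments pooled, 3 of 40 listed genes were called, beside 3.32% of all genes. Spry2, which encodes a feedback inhibitor of receptor tyrosine kinase signaling, was lower in the posterior palate, with 9.32 to 22.6 RPKM over anterior libraries (median 16.5) and 3.37 to 18.0 RPKM over posterior ones (median 7.59, log2 difference -1.08, limma, adjusted p = 0.00358). Adam19, which encodes a membrane protease, was also lower, with medians of 32.5 and 25.4 RPKM (-0.44, limma, adjusted p = 0.0477). Lrig3, a membrane protein of the family of the EGFR regulator LRIG1, was higher, with medians of 25.8 and 35.4 RPKM (0.54, limma, adjusted p = 0.0174). The Spry2 call held in each of 35 alternatives, that of Lrig3 was lost with the run as a term (adjusted p = 0.226), and that of Adam19 was lost on leaving out any 1 of 17 libraries, where the limma adjusted p reached 0.0920, and in 3 of 10 other alternatives, where it reached 0.378 with the run as a term. The median difference of the 40 genes was -0.03, beside 0.03 for all genes.

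Of the receptors and ligands outside the 9 members, a pair is named after their values were seen. Erbb3, which encodes the neuregulin receptor that pairs with ERBB2, had compartment means from 0.591 ± 0.618 RPKM in posterior nasal to 3.42 ± 4.47 RPKM in posterior medial, and the latter rested on 8.57 RPKM in posterior medial 2. Nrg3, another neuregulin, had means from 3.97 ± 2.09 RPKM in posterior lateral to 8.32 ± 2.22 RPKM in posterior medial, so that its mean was above that of each ligand among the members in every compartment.

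The genes whose levels followed Egfr most closely over the 25 libraries were Slitrk4 (r = 0.83), Wisp1 (r = 0.80), Fgf10 (r = 0.79), Reps2 (r = 0.74) and Slc16a7 (r = 0.72), by Pearson r on log2(RPKM + 0.1) among 11913 genes. Fgf10 encodes a growth factor of the mesenchyme and Reps2 a protein of receptor endocytosis. For Erbb2 they were Mov10 (r = 0.96), 2310003H01Rik (r = 0.94), Cic (r = 0.94), Gcn1l1 (r = 0.94) and Trrap (r = 0.94). Libraries of a compartment share their tissue and some share a run, so these values describe likeness only. Without anterior oral 1 and posterior medial 2 the values were 0.70 to 0.89 for Egfr and 0.86 to 0.91 for Erbb2.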

How the data were processed

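Libraries were grouped by the compartment in their labels. The authors deposited RPKM values per gene from GeneSpring 12.6.1. Reads were single-end, 50 bases long, and those that were duplicates or aligned more than once had been removed. TopHat and mm9 come from the submitters' processing notes. The transcript lengths used are not given in the sources used here. Members and gene lists were chosen with earlier results of these data known.

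A gene entered a comparison of a pair of compartments with 5 RPKM or more in 3 or more of its libraries, and the pooled comparison of regions with 10 RPKM or more in 6 or more. Tests were by limma 3.58.1 (R 4.3.3) on log2(RPKM + 0.1), Benjamini-Hochberg adjusted over all genes tested. The pseudocount of 0.1 understates changes of low genes. The fit was checked on simulated data. The share of all genes whose groups did not overlap was not counted, so a lack of overlap is given as description only. Named genes were the members, listed pathway genes called in any comparison, and the 5 genes most like each member at 5 RPKM or more in 3 libraries. Runs were read from the alignment names kept in supplementary column headers. Read numbers behind a member are approximate, from its longest GENCODE M21 transcript and the implied depth. The study's methods call the replicates biological. They were numbered, and same-numbered anterior oral and nasal libraries deviated together (r from 0.13 to 0.24 for 3 pairs). Only in this comparison did all pairs exceed an r of 0.1, but only 1 of the 3 correlated best with its own number. The numbers were thus not shown to pair the libraries. The main tests used no pairing, and the replicate block served as an alternative. Alternatives were pseudocounts of 0.01 and 1, median centring, no minimum level, a mean-variance trend, a replicate block, all libraries in 1 fit with and without the run, and leaving out each library.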

Additional observations from a re-analysis of the deposited data

Results flagged for a closer look

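In the anterior nasal compartment, the only one with 4 libraries, 1 library stood far from the others for 2 of the 9 members examined. Areg was at 0.111 RPKM in anterior nasal 4 and at 0 in the other 3 libraries, on less than 1 read by the approximate depth (0.547). Ereg was at 0.537 RPKM in the same library and at 0 in the others, on about 9.02 reads. Chance gives such a gap in about 1 in 20 groups of spread-out values, but here 3 libraries were tied at 0, so that any read in the fourth one gives it. No member differed between regions in its lateral-medial or oral-nasal difference by the adjusted test.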

How the results depend on the processing

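Egfr kept its direction in all 172 alternatives, and its side of the threshold in 160 of them. The 172 do not count the fits of anterior lateral against medial without any 1 of the 3 lateral libraries, where Egfr was not tested. They also hold none of posterior against anterior medial, where Egfr was below the minimum in the main test. Of 192 alternatives for the count of members called, 177 gave the same count. For anterior lateral against medial the count went from 1 to 0 with the run as a term, and ranged from 0 to 1 when 1 library was left out. For posterior lateral against medial it went from 0 to 1 with all 25 libraries in 1 fit. For posterior against anterior lateral it went from 1 to 0 without a minimum level (limma, adjusted p = 0.0754), with the run as a term, and with the replicate block (limma, adjusted p = 0.0564), where the numbers do not pair the libraries (r from -0.003 to 0.114), and it ranged from 0 to 1 when 1 library was left out. For posterior against anterior nasal it ranged from 0 to 1 when 1 library was left out. Pooled, it went from 0 to 1 with all 25 libraries in 1 fit, with or without the run, and stayed at 0 without anterior oral 1 and posterior medial 2, an alternative chosen after seeing the data (Egfr 1.10, limma, adjusted p = 0.119). The replicate block changed no other call of a member. For anterior oral against nasal, where anterior nasal 4 has no partner, it gave Egfr 1.06 (limma, adjusted p = 1.00), the difference also found without that library. Over all genes it lowered the calls from 262 to 157 for anterior lateral against medial, from 145 to 65 for the lateral and from 235 to 47 for the nasal compartments between regions, where it also takes anterior nasal 4, which has no partner, out of the estimate (261 genes without that library and with no block). Libraries correlated best with their own number in 3 of 3 pairs between the medial compartments and in fewer elsewhere.

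Erbb2 was called in no alternative, but its small differences turned direction in 17 of 192. With the run as a term or a block it was -0.061 for anterior oral against nasal, with the run as a term -0.053 pooled, and with centring -0.011 for the lateral-minus-medial difference between regions. Leaving out 1 library gave it a range of -0.26 to 0.49 for posterior lateral against medial, -0.32 to 0.62 for anterior oral against nasal and -0.66 to 0.085 for posterior against anterior medial. The range was -0.038 to 0.33 for the nasal compartments, -0.034 to 0.18 pooled, -0.41 to 0.34 for lateral minus medial between regions and -0.078 to 0.86 for oral minus nasal between regions. The cause was not tested.

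Counts over all genes moved more. Leaving out 1 library gave 55 to 195 genes for anterior lateral against medial and 12 to 57 for posterior oral against nasal, and between regions 0 to 46 for the medial, 6 to 211 for the lateral, 0 to 14 for the oral and 53 to 261 for the nasal compartments and 231 to 414 pooled. Over the alternatives other than leaving out a library, they ranged from 0 to 318 around 262 for anterior lateral against medial, from 11 to 143 around 132 for posterior oral against nasal, from 0 to 166 around 11 for the medial, 11 to 163 around 145 for the lateral, 0 to 49 around 19 for the oral and 33 to 319 around 235 for the nasal compartments between regions, and from 143 to 485 around 286 pooled. They were 0 in the main test and up to 25 and 6 for posterior lateral against medial and anterior oral against nasal. For the called pathway genes 102 of 150 alternatives left the call in place and 0 turned the direction. Depth limits the 7 low members, for which 3 reads at median depth stand for 0.0762 RPKM (Erbb4) to 0.755 RPKM (Areg).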
